A study of Mus musculus with 11 samples.

Results

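The data on 9 genes of the EGF, FGF and IGF pathways were examined in Syncrip conditional knockout (cKO) mice at E14.5: the receptors Egfr, Erbb2, Erbb3, Fgfr1, Fgfr2, Fgfr3, Igf1r and Insr, and the EGF receptor ligand Hbegf. The members were listed by name, and all 9 were found among the 48440 genes of the RNA-seq table and among the 32285 genes of the scRNA-seq matrices. RNA-seq covered 3 WT and 3 cKO cultures of neural progenitor cells (NPCs) from E14.5 embryos, and scRNA-seq covered 1 WT and 1 cKO embryo at E14.5. In the study's cKO mice, loxP sites flank exons of both Syncrip alleles, and Cre is driven by Emx1, a gene of dorsal cortical progenitors, so cells that arise in the ganglionic eminences (GE) lie largely outside its reach. The labels give the cultures only as WT or cKO, and the study's NPC medium held EGF and bFGF, although its methods do not name RNA-seq among the uses of that medium.

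EGF, FGF, insulin and IGF receptors are receptor tyrosine kinases: a ligand brings receptor chains together or reshapes a standing dimer, the kinases phosphorylate each other, and adaptors then pass the signal to the RAS-ERK and PI3K-AKT pathways. In the embryonic cortex, FGF receptors are known from apical progenitors (APs), which divide at the ventricle, and EGF receptor rises in progenitors late in neurogenesis. Signaling through ERK induces its own inhibitors, among them the Sprouty proteins and the dual-specificity phosphatases, and transcription factors such as Etv4, Egr1 and Fos.

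The cultures held 16962903 to 22708400 counts and the embryos 8214 (WT) and 9560 (cKO) cells after filtering, with a median of 11705 and 11012.5 UMIs per cell. The whole Syncrip gene measured 79.2 ± 1.09 CPM in the WT group against 86.8 ± 4.69 CPM in the cKO group (SD, n = 3), a value that cannot check the loss of a few exons. Pax6, a transcription factor of cortical progenitors, was at 75.1 to 79.2 CPM among WT cultures and 58.8 to 62.4 CPM among cKO cultures, a lower level (edgeR adjusted p = 0.00487). Of 11 tested genes of the AP list 4 were higher and 5 lower. The summed level of this list was 10900 to 13100 CPM in WT and 13100 to 14600 CPM in cKO cultures. However, Sox2 had 0 counts in all 6 cultures. Its annotated span is shared to 100% with another gene, as are those of Gfap and Gpr17, which also had 0 counts. The summed level of the astrocyte list was 1330 to 1530 CPM in WT and 703 to 769 CPM in cKO cultures, with 3 of 4 tested genes lower and Gfap at 0. For the oligodendrocyte precursor list it was 1490 to 1700 and 2070 to 2240 CPM, with 3 of 4 tested genes higher and Gpr17 at 0. The migrating neuron list was at 409 to 483 and 262 to 268 CPM, with 5 of 7 tested genes lower, none higher and Neurod1 at 0. The annotated span of Neurod1 is also shared to 100% with other genes, so its count of 0 is uncertain. The GE-derived neuron list was at 78.2 to 81.1 and 58.6 to 63.5 CPM, with 3 of 7 tested genes lower and none higher. The deep-layer neuron list was at 387 to 418 and 480 to 498 CPM, with 2 of 6 tested genes higher and 2 lower. Most of that sum came from the 2 higher genes. These were Tle4 (232.5 to 285.8 CPM in WT and 344.9 to 355.6 CPM in cKO) and Sox5 (93.1 to 103.9 and 112.4 to 130.2 CPM). The 2 lower genes were Neurod6 (log2 fold change -4.14) and Bcl11b (-0.52). The part of these shifts in the results below was not tested, and in bulk samples fewer cells of a type and less RNA per cell cannot be told apart. Cultures WT 1, WT 2 and cKO 1 had Y-linked reads and the others did not, and the embryos differed in sex.

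Within the WT cultures, levels per exon length placed Fgfr3 (29.1 ± 2.31 FPKM), Egfr (27.0 ± 2.81 FPKM) and Fgfr1 (25.5 ± 1.52 FPKM) at the top, and these 3 did not differ beyond their SD (n = 3). Fgfr2 followed at 16.6 ± 0.136 FPKM, although its annotated span is shared to 58% with other genes, so its place is uncertain. Insr was next at 10.4 ± 0.368 FPKM. Igf1r (6.75 ± 0.473 FPKM) and Hbegf (5.57 ± 0.722 FPKM) had touching SD ranges, and Erbb2 (3.38 ± 0.497 FPKM) came below them. Erbb3, a receptor with little kinase activity of its own that signals through its partners, was lowest at 0.395 ± 0.115 FPKM.

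Of the 9 members, 5 were higher and 1 was lower in cKO cultures, and none changed 2-fold. Across all 14432 genes tested, 39.5% were called, 19.7% higher and 19.8% lower, by edgeR's quasi-likelihood test at a Benjamini-Hochberg adjusted p of 0.05. The median log2 fold change (cKO over WT) was 0.234 over the members and 0.002 over all genes. Genotypes did not overlap in 8 of 9 members, against 50.4% of all genes (25.7% with cKO above WT and 24.7% below). With 1 culture left out, the members called higher were 1 without cKO 1, 1 without cKO 2, 2 without cKO 3 and 3 without WT 1. Fgfr2 was no longer called without cKO 1, cKO 2, cKO 3 or WT 3. The p-values measure the spread between these cultures, whose origin from separate animals is not given, and an exact test of 3 against 3 cannot go below 0.1.

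Among the EGF family, Egfr, the receptor for EGF, TGF-alpha and HB-EGF (chromosome 11, 16752203 to 16918158, plus strand, mm10), stood at 317, 270 and 331 CPM in the 3 WT cultures, against 324, 339.8 and 341 CPM in the 3 cKO cultures. The genotypes overlapped, and the log2 fold change of 0.13 (SE 0.09) did not pass edgeR's test (adjusted p = 0.254). Erbb2, the co-receptor that binds no ligand by itself (chromosome 11, 98412470 to 98437716, plus strand), was at 15.04, 20.2 and 17.5 CPM among WT cultures and 24.2, 23.0 and 21.6 CPM among cKO cultures. All 3 cKO cultures lay above WT, and Erbb2 rose by 0.38 on the log2 scale (SE 0.12, edgeR adjusted p = 0.0221).

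Hbegf, a membrane-bound ligand shed by metalloproteases (chromosome 18, 36504929 to 36515805, minus strand), was at 28.2, 29.6 and 23.0 CPM in the 3 WT cultures, against 33.0, 35.7 and 33.4 CPM in the 3 cKO cultures. Every cKO culture exceeded every WT culture, with a log2 fold change of 0.34 (SE 0.11, edgeR adjusted p = 0.0224). Erbb3 (chromosome 10, 128567523 to 128589652, minus strand) was at 2.07, 1.89 and 3.17 CPM among WT cultures and 1.52, 1.69 and 1.25 CPM among cKO cultures. The cKO cultures lay below WT, but the log2 fold change of -0.69 (SE 0.29) did not pass the test (edgeR adjusted p = 0.0751).

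**Figure D1:**
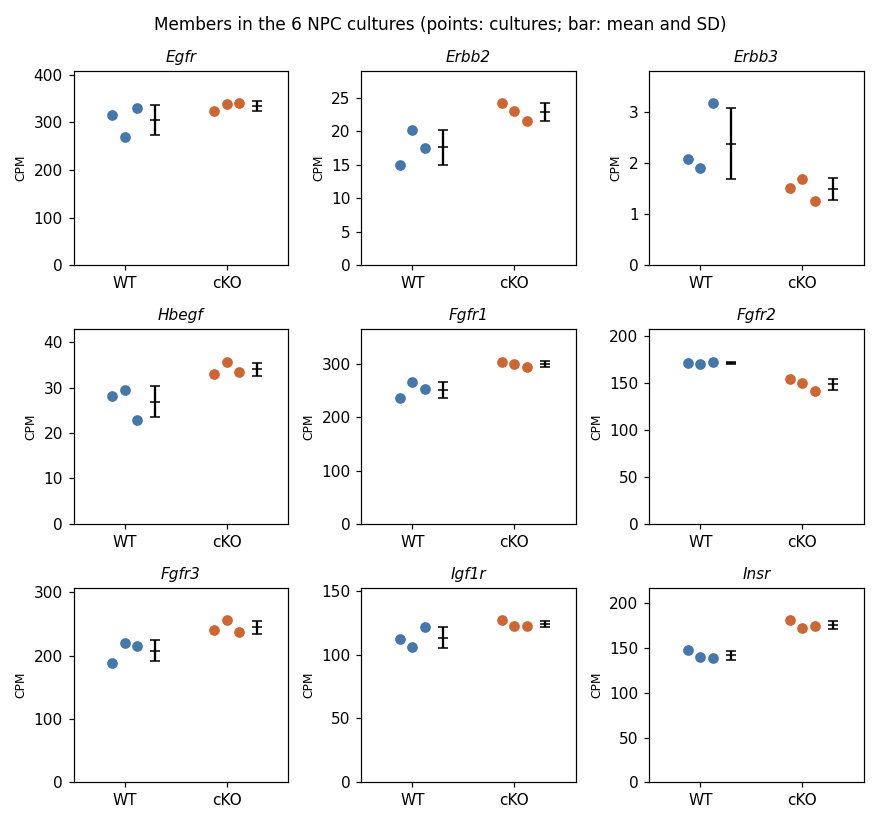
CPM (y axes, from 0) of the 9 members in the 3 WT and 3 cKO cultures, one point per culture, with mean and SD at the right of each group. The genotypes overlap only for Egfr, and Fgfr2 and Erbb3 are the members with cKO below WT.

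Among the FGF receptors, Fgfr1 (chromosome 8, 25513654 to 25575718, plus strand) measured 236, 266 and 254 CPM in the 3 WT cultures, against 304, 300.4 and 293 CPM in the 3 cKO cultures. It rose by 0.25 on the log2 scale (SE 0.08, edgeR adjusted p = 0.0193), and the groups did not overlap. Fgfr3, a receptor of early cortical progenitors and later of astrocytes (chromosome 5, 33721674 to 33737068, plus strand), measured 189, 220.1 and 215 CPM among WT cultures and 240.2, 256 and 238 CPM among cKO cultures. It rose by 0.23 (SE 0.08, edgeR adjusted p = 0.0339), again without overlap.

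Fgfr2 was the member that fell. It measured 171, 169 and 172 CPM in the 3 WT cultures, against 154, 149 and 141 CPM in the 3 cKO cultures (log2 fold change -0.21, SE 0.07, edgeR adjusted p = 0.0327). Its annotated span in the deposited table (chromosome 7, 130162451 to 133123350, minus strand) covers 2960900 bases and shares 58.0% of them with 70 other genes, so its level is uncertain. With the trend of fold change with gene span removed, its log2 fold change was -0.58. That correction was read at the same annotated span, so it is uncertain too and does not show a stronger fall.

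The receptors of IGF and insulin both lay higher in cKO cultures. Insr (chromosome 8, 3122061 to 3279617, minus strand) measured 148, 139.7 and 139 CPM among WT cultures and 181, 173 and 175 CPM among cKO cultures. It rose by 0.31 (SE 0.07, edgeR adjusted p = 0.00382), the smallest adjusted p among the members. Igf1r (chromosome 7, 67952827 to 68233668, plus strand) measured 112, 106 and 122 CPM in the 3 WT cultures, against 127, 122 and 123 CPM in the 3 cKO cultures. The log2 fold change of 0.13 (SE 0.07) did not pass the test (edgeR adjusted p = 0.193), although the cKO cultures lay just above WT.

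The ERK feedback and target list had a higher median than the members. Of its 16 genes, 13 were higher and 1 lower in cKO cultures, with a median log2 fold change of 0.953 and 8 genes changed at least 2-fold. Across all genes tested, 19.7% were higher and 19.8% lower. This list and those below were chosen with earlier results of these data known, so their counts and medians are descriptions only. Egr1, an immediate early transcription factor, stood at 57.19, 56.48 and 59.96 CPM among WT cultures and 1000, 1088 and 1064 CPM among cKO cultures. Its log2 fold change was 4.18 (edgeR adjusted p = 1.09e-12). Fos, another immediate early factor, rose from 65.3 ± 13.9 to 657 ± 44.9 CPM (SD, n = 3), by 3.33 on the log2 scale. The phosphatases Dusp5 and Dusp6, which remove phosphate from ERK, rose by 2.85 and 2.66. The Sprouty inhibitor Spry1 rose by 1.88 and the ETS factor Etv4 by 1.74. The 1 lower gene was Myc, a growth-promoting transcription factor, at 77.0 ± 10.4 CPM in the 3 WT cultures, against 54.3 ± 3.76 CPM in the 3 cKO cultures.

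Among the other EGF family genes, the receptor Erbb4 and the regulator Lrig1 rose by 1.07 and 1.04 on the log2 scale. Of 13 tested, 5 were higher and 1 lower, with a median log2 fold change of 0.391. Erbb4, the neuregulin receptor, measured 237, 199 and 192 CPM among WT cultures and 468, 438 and 414 CPM among cKO cultures (log2 fold change 1.07, edgeR adjusted p = 1.35e-06). Lrig1, which promotes the breakdown of EGF family receptors, rose from 345 ± 2.66 to 709 ± 19.7 CPM (SD, n = 3). The neuregulin ligand Nrg1 rose by 0.53, and Nrg3 was at 2.62 ± 0.24 CPM in the 3 WT cultures, against 2.84 ± 0.307 CPM in the 3 cKO cultures and was not called.

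In the IGF list, 4 of 9 tested genes were higher and 2 lower, with a median of -0.131. The binding proteins, which hold IGFs outside the cell, went both ways. Igfbp2 measured 136, 167 and 131 CPM among WT cultures and 404, 488 and 511 CPM among cKO cultures (log2 fold change 1.69, edgeR adjusted p = 1.13e-07). Igfbp5 fell from 279, 286 and 359 CPM to 118, 138 and 134 CPM, a log2 fold change of -1.25 (edgeR adjusted p = 7.48e-07). Igf2r, which clears IGF2, rose by 0.26, while Igf2 itself was at or below 0.357 CPM in every culture.

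In the FGF list only 6 of 22 genes had enough counts to test. The annotated spans of Fgf1, Fgf2 and Fgf7 are shared to 100%, 99.9% and 100% with other genes, so their counts at or near 0 are uncertain, as for Sox2. Of the 6, 1 was called: the decoy-type receptor Fgfrl1, at 59.4 ± 3.07 CPM in the 3 WT cultures, against 92.3 ± 1.73 CPM in the 3 cKO cultures. Of the 26 shared adaptors and kinases, 6 were higher and 7 lower, with a median of 0.061.

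**Figure D2:**
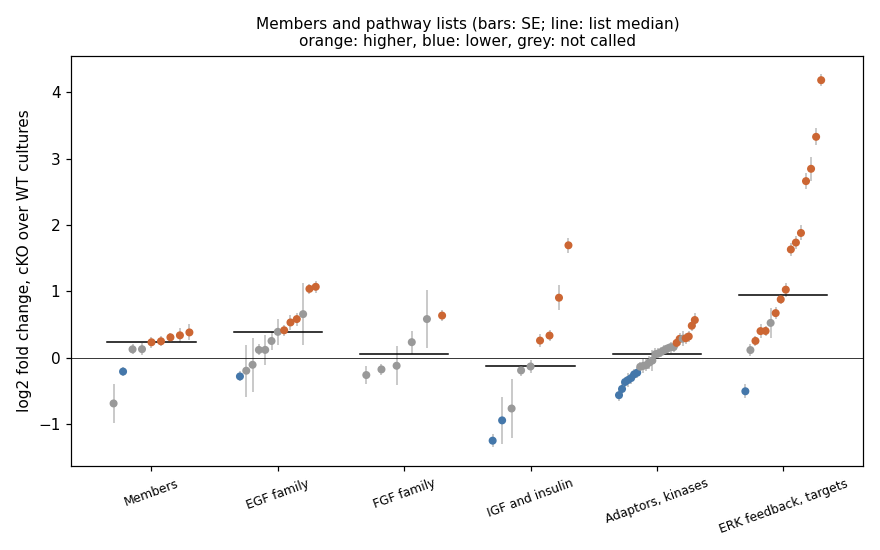
log2 fold change (cKO over WT cultures, y axis) of each tested gene, by list; bars are SE, horizontal lines list medians. The members lie between -0.69 and 0.38, and the ERK feedback and target list reaches 4.18.

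In the embryos, cells were clustered without the members and the pathway genes, and clusters were named from marker lists. AP-like cells formed 3 clusters with 945 WT and 1280 cKO cells. They carried Sox2 (381 and 377 CPM in WT and cKO) and Pax6 (281 and 287 CPM). Cluster 7 had 2 astrocyte-list genes, Aldoc and Aldh1l1, and 1 AP-list gene, Hes5, among its 10 leading genes. Cluster 11 was led by mitotic genes. Cluster 14 had low UMI counts (median 2642 in WT and 2890 in cKO) and a hemoglobin gene among its leading genes. Genotype values of Egfr, the FGF receptors, Igf1r and Insr in APs are therefore given by cluster, with the sum over the class beside them, and those of other genes over the class only. With 1 embryo per genotype there is no test between genotypes, and the intervals (95%, exact) cover counting error only.

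Fgfr3 was largely restricted to cortical progenitors. It stood at 59.6 CPM in WT APs and 77.7 CPM in cKO APs, at 13.9 and 25.2 CPM in intermediate progenitor (IP)-like cells, and below 10 CPM in every other named class. GE progenitor-like cells were among these other classes, with 3 UMIs in the WT embryo (1.84 CPM) and 18 in the cKO embryo (8.98 CPM). The intervals of APs and IPs did not overlap in either embryo. Fgfr2 was also highest in APs (262 and 281 CPM) and separate from the next class in both embryos. However, GE progenitor-like cells (199 and 185 CPM) and GE-derived neuron-like cells (182 and 191 CPM) came next. Fgfr2 remained at 120.0 to 164 CPM in migrating and deep-layer neuron-like cells. Fgfr1 was highest in APs as well (117 and 114 CPM), with meningeal fibroblast-like cells at 101 and 109 CPM inside overlapping intervals.

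The receptors Egfr, Erbb2 and Erbb3 had few UMIs in cortical cells of the embryos. Egfr stood at 8.78 CPM in WT APs and 7.82 CPM in cKO APs from 110 and 141 UMIs, and it was highest in pericyte-like cells (57.5 and 61.2 CPM) and meningeal fibroblast-like cells (30.1 and 57.6 CPM), whose intervals overlapped. In deep-layer neuron-like cells it was at 0.0817 and 0.259 CPM. Erbb2 was at 7.74 and 6.49 CPM in APs and below 1 CPM in IPs and in every neuron class except Cajal-Retzius-like cells, where a count of 0, with 3 UMIs taken as its limit, allows up to 3.42 CPM in WT and 2.40 CPM in cKO. Erbb3 had 1 UMI in WT APs and 0 in cKO APs, so its level was not measurable. Hbegf was highest in endothelial-like cells, at 101 CPM in 24 WT cells and 53.3 CPM in 33 cKO cells, against 4.55 CPM in APs of both embryos. Its endothelial interval was apart from the next class in WT but overlapped that of pericyte-like cells (40.8 CPM) in cKO.

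The insulin and IGF receptors showed little restriction. Igf1r was lower in APs (213 and 186 CPM) than in GE-derived neuron-like cells (381 and 369 CPM) and deep-layer neuron-like cells (325 and 322 CPM). Insr was highest in endothelial-like cells (206 and 198 CPM), apart from the next class in both embryos, and at 75.8 and 66.9 CPM in APs.

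**Figure D3:**
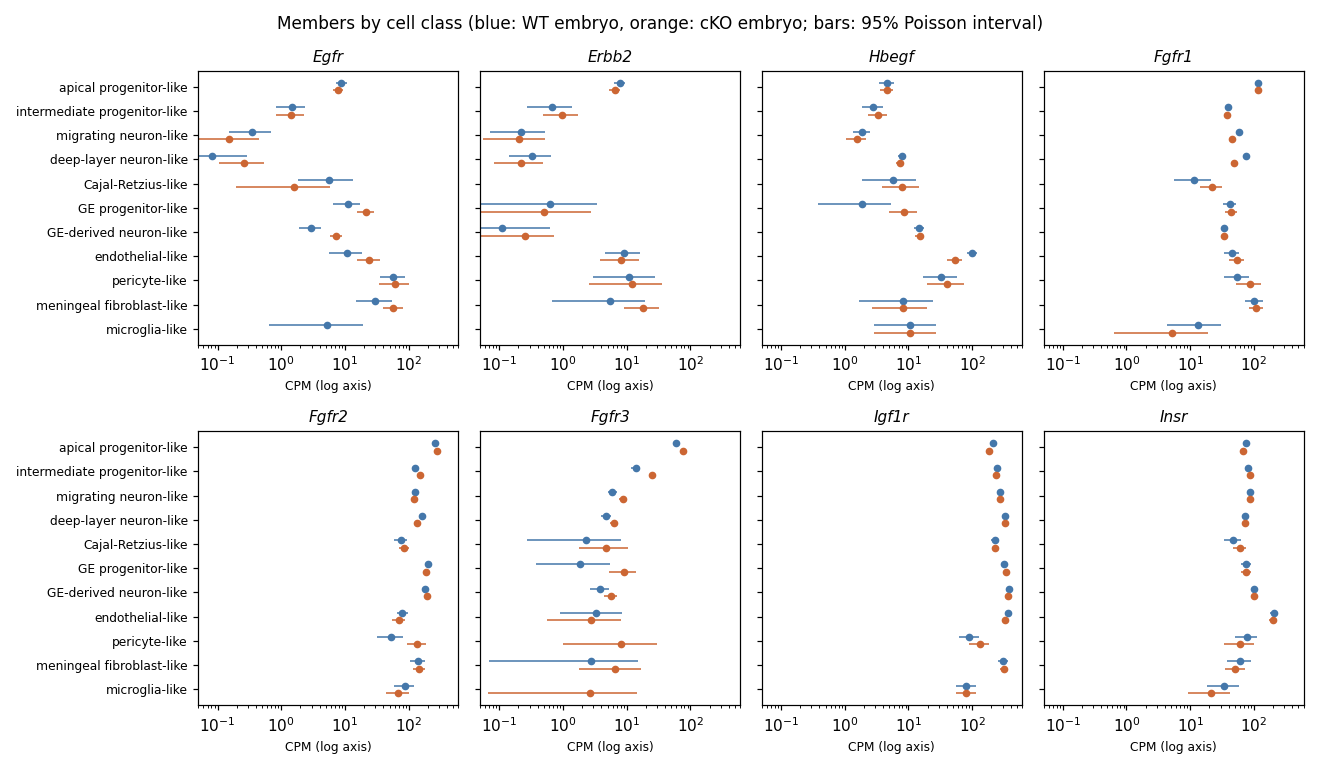
CPM (log axis) of 8 members in 11 named classes of the WT (blue) and cKO (orange) embryo; bars are 95% Poisson intervals, classes with 0 UMIs have no point, and red blood cells are not drawn. Fgfr3 drops from APs to IPs and again to neurons, whereas Igf1r lies between 186 and 381 CPM in every neural class.

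Profiles across the 12 named classes of both embryos (24 profiles) were compared with those of 11390 genes by Pearson correlation of log2(CPM + 10). Fgfr3 was most like Aldoc (0.93), Sox3 (0.93) and Mt3 (0.92), and Egfr was most like Col5a2, Mrc2 (both 0.92) and Tpm2 (0.91). Hbegf was most like Tcim (0.92), Pcdh1 and Apold1 (both 0.90). For Fgfr1 the nearest were Nectin3 (0.87), Cnn3 (0.86) and Hddc2 (0.84), and for Fgfr2 Taf15, Ndc1 and Xrcc6 (each 0.93). Igf1r was nearest to Kif2a, Znrf1 (both 0.93) and Fscn1 (0.92), and Insr to Dennd5b (0.94), Luzp1 (0.93) and Arfgef1 (0.92). The profiles share 2 libraries and differ in depth, so these values are descriptions. Erbb3 had too few UMIs for such a comparison.

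Between the embryos, Fgfr3 was the member that lay furthest above WT in cKO APs. The log2 ratio (cKO over WT) was 0.43 (0.23 to 0.63) in cluster 7, 0.33 (0.16 to 0.51) in cluster 11 and 0.70 (-0.15 to 1.59) in cluster 14, and 0.38 (0.25 to 0.51) over the class. Of the 7 members with at least 200 UMIs in APs, none reached 1.5-fold, against 1.66% of 10263 genes (1.0% higher and 0.653% lower). This limit was chosen after values were seen, and Fgfr3 had reached a lower limit used first, so the count is no result about the members. Called S phase held 31.3% of WT and 41.4% of cKO APs. The Fgfr3 ratio was 0.46 in S, 0.37 in G2/M and -0.07 (-0.53 to 0.40) in G1 cells, the last from 85 and 76 UMIs.

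Fgfr3 was also higher in cKO IPs, at a log2 ratio of 0.86 (0.56 to 1.15). The ratio was 0.97 (0.58 to 1.37) in cluster 8 and 1.27 (0.56 to 2.04) in cluster 21, and its interval spanned 0 in clusters 17 and 19. Outside these progenitors, the Fgfr3 ratio was 0.55 (0.22 to 0.89) in migrating and 0.41 (0.06 to 0.76) in deep-layer neuron-like cells. It was 0.56 (-0.06 to 1.2) in GE-derived neuron-like cells and 2.28 (0.51 to 4.69) in GE progenitor-like cells, the last from 3 and 18 UMIs.

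The other FGF receptors differed less in APs. Fgfr2 had a log2 ratio of 0.10 (0.01 to 0.18) in cluster 7, 0.08 (-0.01 to 0.18) in cluster 11 and 0.48 (-0.07 to 1.04) in cluster 14, and of 0.10 (0.04 to 0.17) over the class. Fgfr1 was at -0.01 (-0.16 to 0.13), -0.05 (-0.19 to 0.08) and -0.27 (-0.95 to 0.41) in these clusters, and at -0.04 (-0.14 to 0.06) over the class. In deep-layer neuron-like cells, Fgfr1 stood at 74.4 CPM in WT cells and 48.4 CPM in cKO cells, a log2 ratio of -0.62 (-0.72 to -0.52). The clusters of that class were unequal: -0.80 in cluster 4, -0.38 in cluster 5 and 0.04 (-0.30 to 0.38) in cluster 9. Fgfr1 was at -0.32 (-0.45 to -0.20) in migrating neuron-like cells and at -0.02 (-0.24 to 0.20) in GE-derived neuron-like cells.

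Igf1r had a log2 ratio of -0.28 (-0.39 to -0.18) in cluster 7, -0.14 (-0.25 to -0.04) in cluster 11 and 0.71 (-0.03 to 1.49) in cluster 14, and of -0.20 (-0.27 to -0.12) over the class. Insr was at -0.15 (-0.32 to 0.03), -0.26 (-0.44 to -0.07) and 0.38 (-0.83 to 1.67) in the same clusters, and at -0.18 (-0.31 to -0.06) over the class. For both receptors the third, shallow cluster lay on the other side of 0, with an interval that spanned it. In GE-derived neuron-like cells both stayed near 0, at -0.05 (-0.11 to 0.02) for Igf1r and 0.04 (-0.09 to 0.17) for Insr.

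For Egfr and Hbegf no difference in APs was detectable at this depth. The log2 ratio of Egfr was 0.20 (-0.38 to 0.80) in cluster 7 and -0.44 (-0.94 to 0.06) in cluster 11, with 1 UMI per embryo in cluster 14, and -0.17 (-0.54 to 0.21) over the class, and that of Hbegf over the class was 0.00 (-0.51 to 0.51). In the GE-derived classes Egfr lay higher in the cKO embryo. It had 26 UMIs in WT and 87 in cKO GE-derived neuron-like cells, a log2 ratio of 1.32 (0.67 to 2.01). Of these UMIs, 25 and 69 lay in cluster 10 (325 WT and 529 cKO cells), where the ratio was 0.92 (0.24 to 1.64). In GE progenitor-like cells it had 18 and 43 UMIs (0.96, 0.13 to 1.84). Egfr also lay higher in endothelial-like cells, from 13 and 26 UMIs (1.16, 0.15 to 2.24). None of the 5 members with at least 200 UMIs in GE-derived neuron-like cells reached 1.5-fold, against 1.03% of 9264 genes (0.594% higher and 0.432% lower). Egfr was below that UMI count. The fold limit was chosen after values were seen, so this count, too, is no result about the members.

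**Figure D4:**
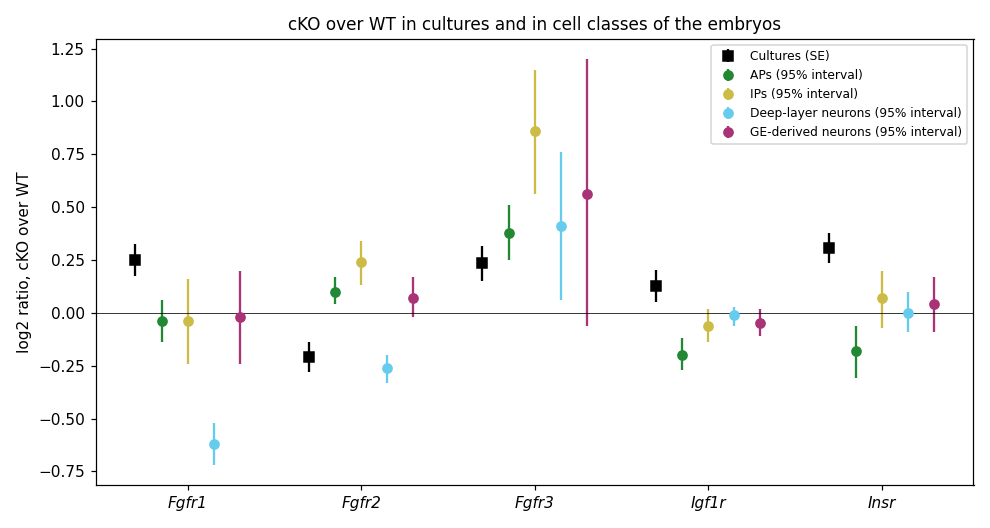
log2 ratio of cKO over WT (y axis) for 5 receptors in the cultures (black, SE) and in 4 cell classes of the embryos (colors, 95% counting interval). Fgfr3 lies above 0 in cultures and in all 4 classes, with an interval that spans 0 in GE-derived neurons, Fgfr1 lies lowest in deep-layer neurons, and Insr lies above 0 in cultures and below 0 in APs.

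Among the pathway genes, the 2 immediate early factors lay lower in cKO than in WT APs. Fos was at 63.9 CPM in WT APs and 31.0 CPM in cKO APs (log2 ratio -1.04, interval -1.20 to -0.89), and Egr1 at 85.2 and 59.2 CPM, a ratio of -0.53 (-0.65 to -0.40). Over all cells kept, APs included, both were lower in the cKO embryo as well. Fos was at 38.5 and 23.2 CPM there (-0.73, -0.8 to -0.66), and Egr1 at 47.7 and 36.8 CPM (-0.37, -0.43 to -0.31). In APs, Dusp6 had only 35 and 32 UMIs and Spry1 26 and 35, with intervals that spanned 0. Nrg1 was the listed ligand with most UMIs in APs (2380 and 2610 CPM), followed by Nrg3 (281 and 407 CPM). These genes span 1069479 and 1104137 bases, and in the WT cultures they were at 21.65 and 2.62 CPM. Whether intronic reads were counted in the embryos is not stated, so this order of ligands is uncertain as an order of mRNA levels. Erbb4 stood at 89.4 and 66.3 CPM. Igfbp2 was at 167 and 159 CPM and Igfbp5 at 62.2 and 70.1 CPM. Among listed ligands and receptors, Fgfrl1 (15.7 and 16.9 CPM) and Fgf20 (2.07 and 2.05 CPM) had the most UMIs in APs in the FGF list, and Igf2r (31.4 and 24.4 CPM) and Igf2 (0.399 and 0.942 CPM) in the IGF list. Chosen after its values were seen, Fgfbp3, a secreted FGF-binding protein, had a log2 ratio of -0.58 (-0.69 to -0.48) in APs. Over all cells kept, the Fgfbp3 ratio was 0.21 (0.13 to 0.29). In the cultures Fgfbp3 was not called (log2 fold change 0.24, edgeR adjusted p = 0.302).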

How the data were processed

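The RNA-seq table deposited by the authors holds unnormalized counts for each culture, made from quality-filtered reads aligned to mm10 with HISAT2. The counting program, its annotation and its strand setting were not given in the sources used. The scRNA-seq matrices are UMI counts as written by Cell Ranger 7.0.0 (matrix header), and the sources do not say whether intronic reads were included. The LACE-seq was not analysed here.

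The genotypes were compared in edgeR 4.0.16 under R 4.3.3 (filterByExpr, TMM, robust quasi-likelihood test, Benjamini-Hochberg adjustment at 0.05), after a test on simulated data. The SE came from the F statistic. FPKM used exon lengths of GENCODE release M21. Alternatives used limma 3.58.1 and DESeq2 1.42.0. Barcodes with 200 or more genes and no more than 10% mitochondrial UMIs were kept and clustered with Seurat 5.3.0 (2000 variable genes without members and pathway genes, 30 components, resolution 0.8). Among classes with 3 or more markers raised 1.5-fold and a mean standardized marker level of at least 0.5, a cluster took the one with the highest level. It stayed unnamed where another class that met these limits had more markers among the 10 leading genes, or where UMI counts were low and no own marker was among them. This rule was adjusted after the clusters were seen, so that a class with fewer raised markers could not compete, and without it cluster 7 of the APs stayed unnamed. Doublets called by Scrublet (3.63% of WT and 4.72% of cKO cells) were kept, and removed as an alternative; 22 barcodes occurred in both libraries. UMIs were summed per class and embryo, with exact Poisson and conditional binomial intervals at 95%. The 1.5-fold limit for the embryos was chosen after values were seen; a lower limit used first was reached in APs by Fgfr3 alone among the members.

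The members and lists were chosen with earlier results of these data known. Named were all members; per list up to 6 genes called at least 2-fold without overlap; the 2 ligands or receptors with most UMIs in APs; and the 3 genes most like each member (for Erbb2 and Erbb3 not reported here). Myc and Fgfbp3 were named after their values were seen.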

Additional observations from a re-analysis of the deposited data

Results flagged for a closer look

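Only the members and the pathway genes named by rule were compared here. In 8 of them the 3 cKO cultures all lay on one side of the WT cultures. The interval of their log2 ratio in APs (cKO over WT embryo) lay wholly on the other side. These ratios are sums over the class, and the difference between cultures and embryos was not tested, since each genotype had 1 embryo. The count of 8 has no background to be read against. Of all genes tested, 50.4% had no overlap between genotypes in the cultures. Erbb4, Igfbp5, Egr1 and Fos were named for a 2-fold difference without overlap there, so their choice already met the condition on cultures. Among the members, Fgfr2 was lower in cKO cultures and had a log2 ratio of 0.10 in APs, and Insr and Igf1r were higher in all cKO cultures, with ratios of -0.18 and -0.20 in APs. Igf1r was not called in the cultures. Among the pathway genes, Erbb4 (-0.43), Igf2r (-0.36), Egr1 (-0.53) and Fos (-1.04) were higher in cKO cultures and lower in cKO APs, and Igfbp5 was lower in cKO cultures with a ratio of 0.17 in APs. Over all cells kept, APs included, Igf2r (-0.11), Egr1 (-0.37) and Fos (-0.73) were lower in the cKO embryo as well. Erbb4 (0.27) and Igfbp5 (0.54) were higher there.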

How the results depend on the processing

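The members' directions in cultures held under every alternative except 1: with the trend with gene span removed, Igf1r was at -0.009. That setting also left Fgfr1 at 0.18 and not called. With the sex of the culture as covariate, Fgfr2 was at -0.20 and no longer called, and Erbb3 at -0.78 and called. Scaling, filters, DESeq2 and limma-voom changed no member's call. Leaving out 1 culture at a time gave log2 fold changes of 0.27 to 0.48 for Erbb2, 0.23 to 0.40 for Hbegf, 0.20 to 0.28 for Fgfr1, -0.24 to -0.17 for Fgfr2 and 0.16 to 0.26 for Fgfr3, while Insr stayed called in all. Erbb2 lost its call without WT 1, cKO 1 or cKO 2, Hbegf without WT 3 or any cKO culture, Fgfr1 without any cKO culture, Fgfr2 without WT 3 or any cKO culture, and Fgfr3 without WT 1 or any cKO culture. The count of members called ran from 1 to 5 higher and 0 to 1 lower. The counts ran from 0 to 1 lower in the EGF and FGF lists, 1 to 2 lower in the IGF list, and 2 to 9 higher and 4 to 9 lower among adaptors and kinases. Without the low-count filter, with DESeq2, with the replicate block or with the span trend removed, 1 FGF-list gene was lower; with DESeq2, 1 IGF-list gene was lower; with the span trend removed, 3 adaptors and kinases were higher. The replicate numbers did not pair the cultures (correlations of same-numbered deviations 0.264, -0.047 and 0.116), and the replicate block raised the calls over all genes from 5701 to 6405 and changed no member's call.

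In APs, taking the mean over cells of each cell's CPM gave a Fgfr2 ratio of 0.26, and levels of 6.76 CPM for Egfr in WT, 103 and 107 for Fgfr1 in WT and cKO, 226 and 271 for Fgfr2, 180.2 and 164 for Igf1r, and 64.8 and 60.8 for Insr. At resolution 0.4 the levels were 54.6 and 73.0 for Fgfr3, 232 and 205 for Igf1r, and 83.1 and 73.9 for Insr. Without cluster 14, an alternative chosen after seeing the data, they were 273 and 291 for Fgfr2 and 223 and 192 for Igf1r. Without doublets, Igf1r was at 178 CPM in cKO. The cause of these shifts was not tested. The Fgfr3 ratio in APs ranged from 0.30 to 0.42 over all settings. Depth limits Erbb3, with 1 UMI in APs of both embryos together.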
